A study of Mus musculus with 6 samples.

Results

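The genes examined encode the proteasome: the rows whose symbols begin with Psm followed by a letter from a to g, a number and at most one further letter. The rule matched 50 rows under 49 symbols, of 55802 symbols in all, because Psmd5 was listed in 2 rows whose counts were added. The members comprised 7 alpha and 7 beta subunits of the common 20S core, 3 immunoproteasome subunits, 2 core subunits restricted to other tissues, 6 ATPases and 11 further subunits of the 19S regulatory particle, 7 assembly chaperones, and 6 genes of other activators and an inhibitor. Livers of male C57BL/6 mice, kept for 71 weeks, were profiled by RNA sequencing. The PS-MP group had chow that contained polystyrene microplastic particles (3 libraries), and the control group had normal chow (3 libraries). Groups follow the titles and the treatment label of each sample, while the treatment protocol names PS-MP chow for all 6. The labels state no particle size, dose or length of feeding. The labels do not say that replicates are separate animals, so p-values measure the spread between these libraries, which may be technical.

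The proteasome breaks down proteins that carry a ubiquitin chain. Its core is a barrel of alpha and beta rings in which only the beta subunits encoded by Psmb5, Psmb6 and Psmb7 are proteolytic in ordinary cells. The 19S particle recognises the chain, removes it and feeds the unfolded substrate into the barrel with its ATPase ring. Interferon induces the replacements Psmb8, Psmb9 and Psmb10, which form the immunoproteasome and favour the production of peptides for MHC class I. Hepatocytes express the standard form, and immune cells are rich in the immunoproteasome. The transcription factor NFE2L1, paired with a small MAF protein, raises proteasome genes when proteolysis falls short.

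The matches to motifs of these regulators among the member promoters are shown because they set out which members carry the letters of each motif. RefSeq promoters of build GRCm38.p6 were found for 41 of the 49 symbols (44 promoters), and the 250 bases before the start site were searched on both strands. The antioxidant response element core bound by NFE2L1 and NFE2L2 was searched as TGACNNNGC, where N is any base. It was found in 5 member promoters (11.4%), against 10.2% of all 32851 promoters. The interferon-stimulated response element core, GAAA and GAAA with any 2 bases between them, was found in 3 member promoters (6.82%), against 2.98% of all. The gamma-activated site core, TTCNNNGAA, was found in 2 member promoters (4.55%), against 7.02% of all. Psmd9 held both of the first motifs, and they did not overlap. In the windows printed here, capitals mark the match, and each window reads along the gene's own strand. Of the catalytic genes, Psmb5 and Psmb6 held the first motif at 47 and 9 bases before the start site, and Psmb8 held the third at 97 bases. These are letter matches and not shown to be sites.
Psmb5, antioxidant response element core, chr14:54618024-54618052, minus strand: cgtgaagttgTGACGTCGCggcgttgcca
Psmb6, antioxidant response element core, chr11:70525338-70525366, plus strand: ctaaagagagTGACGGAGCgctttacgac
Psmd9, antioxidant response element core, chr5:123228149-123228177, plus strand: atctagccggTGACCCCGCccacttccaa
Psmc6, antioxidant response element core, reverse, chr14:45329587-45329615, plus strand: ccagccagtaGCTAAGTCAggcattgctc
Psmb3, interferon-stimulated response element core, reverse, chr11:97703261-97703290, plus strand: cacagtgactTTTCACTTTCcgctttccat
Psmd4, interferon-stimulated response element core, reverse, chr3:95042675-95042704, minus strand: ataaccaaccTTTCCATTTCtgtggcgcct
Psmb8, gamma-activated site core, chr17:34198088-34198116, plus strand: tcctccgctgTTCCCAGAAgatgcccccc

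PS-MP libraries held 79081889, 79317092 and 79691824 counts, and control libraries held 75897165, 68357478 and 112566641. Proteasome genes took 0.318% to 0.356% of the counts in PS-MP and 0.273% to 0.346% in control. Reads of 18S ribosomal RNA took 0.387% to 1.14% in PS-MP and 1.15% to 11.2% in control, with the highest share in control replicate 2. The liver label was borne out by 8 of 8 hepatocyte markers, Alb the highest of them with 48002 to 64520 CPM in PS-MP and 46944 to 56452 CPM in control. Levels are given as CPM, the read count relative to the library's total after TMM scaling, which sets most genes level between libraries.

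No proteasome gene was called as changed between PS-MP and control livers. Of the 49 members, 48 passed the filter on low counts and 0 passed the test (edgeR quasi-likelihood test, lowest Benjamini-Hochberg adjusted p = 0.931), against 0.0113% of all 17662 genes tested. At an unadjusted p under 0.05 the count was 0 of 48, against 5.38% of all genes. DESeq2 called 0 members, against 1.06% of genes, and limma-voom called 0, against 0.00566%. Both diets overlapped for 46 of the 48. The exceptions were Psmb7 and Psmd1, for which all PS-MP libraries lay under all control libraries, or 4.17% of members against 4.99% of all genes; 0 members were higher in each PS-MP library, against 6.24%. Summed, the 49 genes had 3053, 3198 and 3274 CPM in PS-MP and 3460, 3065 and 3687 CPM in control, a ratio of 0.933.

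The intervals were narrow for most members. The 95% interval of the fold change lay inside 2-fold for 45 of the 48 members tested (93.8%), against 53.6% of all genes, and inside 1.5-fold for 36 (75%), against 24.4% of all genes. The median standard error of the log2 fold change was 0.154 for the members and 0.287 for all genes. Members and all genes were not matched for read count. For the 3 immunoproteasome genes the median standard error was 0.288, and 1 interval lay inside 1.5-fold. The intervals of Psma8, Psme2b and Psmc6 reached beyond 2-fold, and the last 2 of these genes were named after their values were seen. The log2 fold change was below 0 for 36 of 48 members with a median of -0.08, against 47.2% of all genes and a median of 0.02. With library size alone, a scaling that shifted the typical gene by 0.21 on the log2 scale, 5 of 48 members were below 0 with a median of 0.13, against 19.8% of all genes and a median of 0.23.

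**Figure D1:**
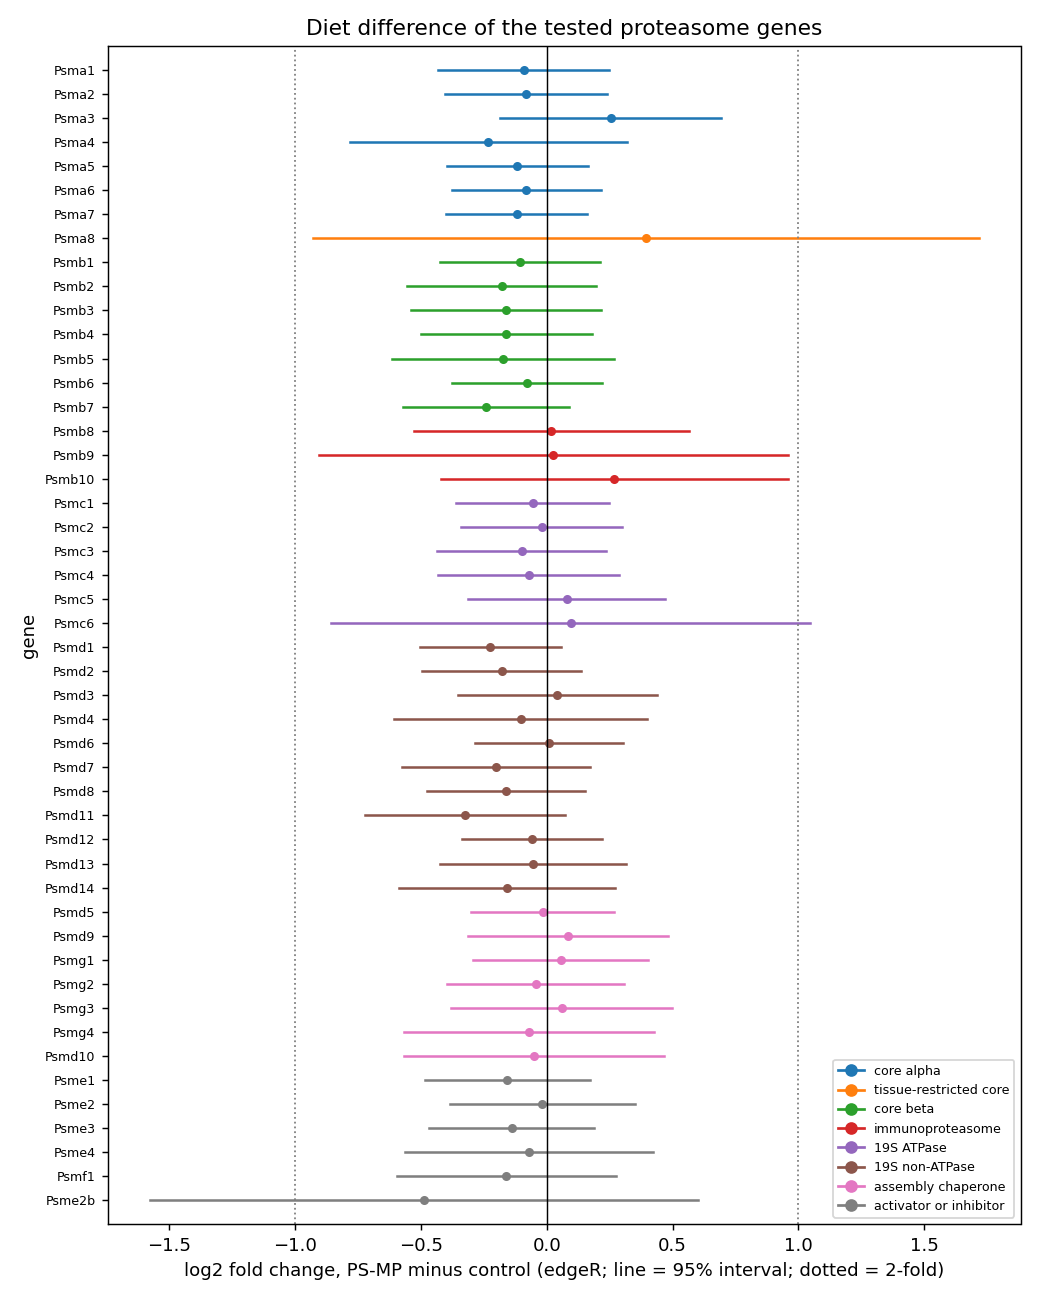
Log2 fold change of PS-MP minus control for the 48 proteasome genes tested, with points for the edgeR estimate, lines for its 95% interval and dotted lines at a 2-fold change. Colours give the class. Every interval crosses 0, and those of Psma8, Psmc6 and Psme2b reach beyond 2-fold.

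The alpha ring, which gates the core and docks the activators, differed little between the diets. The log2 fold changes of Psma1 to Psma7 lay between -0.23 and 0.25 with a median of -0.09 (6 of 7 below 0), and all 7 intervals lay inside 2-fold. Psma3 stood furthest up, with 82.2, 110 and 93.4 CPM in PS-MP and 92.8, 63.5 and 83.0 CPM in control. Its PS-MP libraries reached higher, but control replicates 1 and 3 lay inside their range (log2 fold change 0.25, SE 0.18, interval -0.19 to 0.69, edgeR adjusted p = 0.987). Psma7 had the smallest p on the lower side, with 99.6, 108 and 99.0 CPM in PS-MP and 111, 102 and 121 CPM in control. These overlapped at control replicate 2 (log2 fold change -0.12, SE 0.12).

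The 7 beta subunits of the common core were all below 0, by small amounts. Their log2 fold changes ran from -0.24 for Psmb7 to -0.08 for Psmb6, with a median of -0.16, and with library size alone Psmb5 and Psmb6 stood at 0.03 and 0.13. Psmb5, of the chymotrypsin-like site, had 78.1, 74.7 and 90.2 CPM in PS-MP and 99.1, 69.7 and 105 CPM in control. Control replicate 2 was the lowest of all libraries for this gene, below each PS-MP library (log2 fold change -0.17, SE 0.18, interval -0.61 to 0.27). Without that library 3 members, Psmb2, Psmb5 and Psme1, had an unadjusted p under 0.05 with edgeR, though the lowest adjusted p among members was 0.539. The omission of any other library gave 0 or 1 such member. The share of all genes under 0.05 in these fits is not given here, so the 3 members are not read as a result. Psmb6, of the caspase-like site, had 103, 108 and 120 CPM in PS-MP and 119, 105 and 124 CPM in control, which overlapped (log2 fold change -0.08, SE 0.12). Psmb7, of the trypsin-like site, had 79.4, 102 and 96.2 CPM in PS-MP and 103, 106 and 118 CPM in control. The diets did not overlap for it, by a margin of less than the spread within either diet (log2 fold change -0.24, SE 0.14, interval -0.57 to 0.09, edgeR adjusted p = 0.955).

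The immunoproteasome genes had their highest and their lowest levels within the PS-MP group, with means close to those of control for Psmb8 and Psmb9. The mean of Psmb10 was 28.1 CPM in PS-MP and 23.3 CPM in control. Psmb8, the replacement for Psmb5, had 23.2, 38.2 and 22.9 CPM in PS-MP and 29.9, 27.9 and 25.4 CPM in control. Psmb9, the replacement for Psmb6, had 13.6, 23.7 and 7.88 CPM in PS-MP and 16.1, 11.9 and 16.4 CPM in control. Psmb10, the replacement for Psmb7, had 28.6, 38.0 and 17.7 CPM in PS-MP and 24.9, 19.1 and 26.0 CPM in control. For all 3 genes PS-MP replicate 2 was the highest of the 6 libraries and PS-MP replicate 3 the lowest, so the control libraries lay within the PS-MP range. The log2 fold changes were 0.02 for Psmb8 (interval -0.53 to 0.56), 0.03 for Psmb9 (interval -0.91 to 0.96) and 0.27 for Psmb10 (interval -0.42 to 0.96). The SD was 8.80, 8.02 and 10.2 CPM for Psmb8, Psmb9 and Psmb10 in PS-MP and 2.23, 2.52 and 3.68 CPM in control, and whether the spread differs between the diets was not tested. With PS-MP replicate 2 left out, the log2 fold change was -0.27 for Psmb8, -0.46 for Psmb9 and -0.01 for Psmb10, and with PS-MP replicate 3 left out it was 0.13, 0.32 and 0.50.

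**Figure D2:**
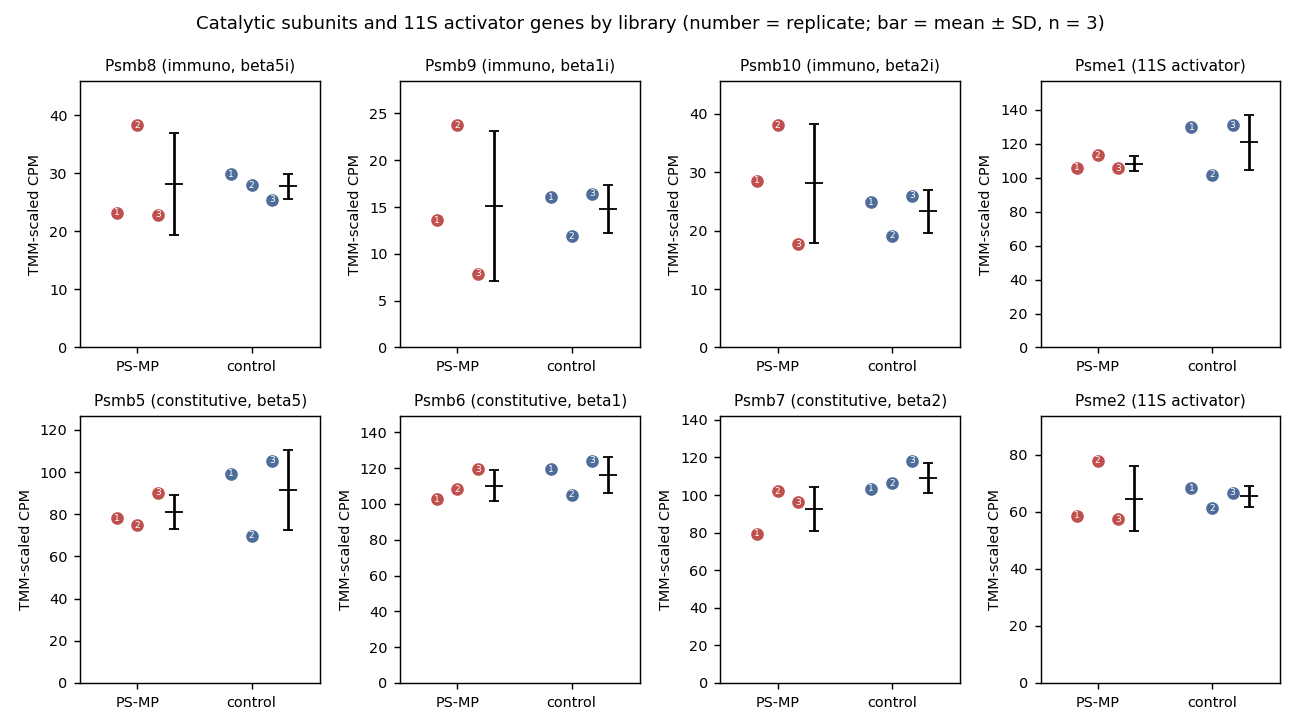
TMM-scaled CPM of the immunoproteasome subunits (upper row), the constitutive subunits they replace (lower row) and the 11S activator genes (right) in each library, with the PS-MP libraries left of the control libraries. Numbers in the points are replicates and bars are mean ± SD (n = 3). PS-MP replicate 2 is highest and PS-MP replicate 3 lowest for Psmb8, Psmb9 and Psmb10.

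The ratio of each immunoproteasome subunit to the subunit it replaces does not depend on the scaling of the libraries. There were 29.7, 51.2 and 25.3 Psmb8 reads per 100 of Psmb5 in PS-MP and 30.1, 40.1 and 24.1 in control. For Psmb9 the numbers were 13.3, 21.9 and 6.60 per 100 of Psmb6 in PS-MP and 13.5, 11.3 and 13.2 in control. For Psmb10 they were 36.0, 37.3 and 18.4 per 100 of Psmb7 in PS-MP and 24.1, 18.0 and 22.0 in control. The diets overlapped in all 3 pairs. The log2 ratio differed by 0.13 for Psmb8, -0.02 for Psmb9 and 0.46 for Psmb10, PS-MP minus control (two-sided exact permutation p = 0.7, 0.9 and 0.3, each 0.9 adjusted over the 3 pairs, n = 3 and 3). The smallest p that 3 against 3 libraries can give is 0.1.

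Genes of antigen processing and markers of immune cells are given beside the immunoproteasome, since interferon acts on both and leukocytes carry it. Of 12 antigen processing genes tested, 0 passed, against 0.0113% of all genes, and 10 were below 0 (median -0.12), against 47.2% of all genes. Tap1, the peptide transporter gene next to Psmb9, had 28.6, 36.5 and 19.2 CPM in PS-MP and 33.2, 23.5 and 29.0 CPM in control. It was, like the immunoproteasome genes, highest in PS-MP replicate 2 and lowest in PS-MP replicate 3, and it was picked from the list after its values were seen. Tap1 and Psmb9 share up to 212 exonic bases on opposite strands in an annotation of the earlier build, and no source states the strand setting of the counts, so reads within that stretch cannot be told apart. Nlrc5, the activator of MHC class I genes, was higher in each PS-MP library, with 21.9, 24.1 and 12.1 CPM in PS-MP and 10.8, 11.3 and 8.93 CPM in control (log2 fold change 0.90, interval 0.24 to 1.57, edgeR adjusted p = 0.805). Irf1, a factor that binds interferon response elements, was lower in each PS-MP library, with 25.0, 16.9 and 23.6 CPM in PS-MP and 26.6, 26.9 and 30.5 CPM in control (log2 fold change -0.36, interval -0.79 to 0.07, edgeR adjusted p = 0.931).

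Summed markers of all leukocytes (3 of 3 tested) had 24.9, 44.5 and 27.1 CPM in PS-MP and 24.1, 36.3 and 21.4 CPM in control, so both replicates numbered 2 stood highest. B and plasma cell markers (6 of 6) had 12.7 to 94.4 CPM in PS-MP and 18.5 to 57.8 CPM in control, and T and NK cell markers (8 of 8) had 3.54 to 10.3 CPM in PS-MP and 4.72 to 6.77 CPM in control. PS-MP replicate 2 was the highest library for both lists, whereas control replicate 2, second for both, had the lowest control level of Psmb9 and Psmb10 but not of Psmb8. The sums of macrophage and Kupffer cell markers (8 of 8 tested) did not overlap, at 152 to 173 CPM in PS-MP and 98.4 to 130 CPM in control. Taken singly, Clec4f and Cd5l overlapped between the diets. The other markers of this list were higher in each PS-MP library, as were 6.24% of all genes tested. Of the list, 0 genes passed the edgeR test. Dendritic cell markers (4 of 5 tested) had 1.61 to 2.56 CPM in PS-MP and 1.21 to 2.60 CPM in control. Neutrophil markers (4 of 6 tested, with Ly6g at 0 counts in every library) had 1.55 to 5.15 CPM in PS-MP and 0.841 to 1.18 CPM in control, also without overlap. Of those tested, S100a8, S100a9 and Retnlg were above 0 and Elane was below 0 (log2 fold change -0.22). Each of these genes held only 107 to 444 counts over all 6 libraries. Endothelial markers (5 of 5) had 68.3 to 105 CPM in PS-MP and 67.8 to 83.2 CPM in control. The part of these cells in the immunoproteasome values was not tested, and in pieces of tissue fewer cells of a type and less RNA per cell cannot be told apart.

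The ATPase ring of the 19S particle, which unfolds substrates, lay close to 0 throughout. Its 6 genes had log2 fold changes between -0.10 and 0.09 with a median of -0.04. Psmc5 had 60.2, 56.2 and 65.4 CPM in PS-MP and 62.5, 45.7 and 64.0 CPM in control (log2 fold change 0.08, SE 0.16). Psmc3 had 105, 92.4 and 111 CPM in PS-MP and 119, 95.5 and 117 CPM in control (log2 fold change -0.10, SE 0.14). Both overlapped between the diets. Psmc6 varied far more between libraries, with 32.0, 72.4 and 41.1 CPM in PS-MP and 27.0, 62.7 and 46.6 CPM in control. The replicates numbered 2 were the highest in both diets and those numbered 1 the lowest, a 2.68-fold range over the 6 libraries (log2 fold change 0.09, interval -0.86 to 1.05).

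The other 19S subunits bind ubiquitin chains, hold the particle together or, in the case of Psmd14, cut the chain off. Of these 11 genes 9 were below 0, with log2 fold changes between -0.33 and 0.04 and a median of -0.16. Psmd11, a scaffold subunit of the lid, had the smallest p of all members, with 107, 86.2 and 122 CPM in PS-MP and 138, 115 and 141 CPM in control. PS-MP replicate 3 lay above control replicate 2, so the diets overlapped (log2 fold change -0.33, SE 0.17, interval -0.72 to 0.07, edgeR adjusted p = 0.931). Psmd1, the large scaffold of the base, had 133, 118 and 127 CPM in PS-MP and 142, 141 and 160 CPM in control. Each PS-MP library was below each control library (log2 fold change -0.22, SE 0.12, interval -0.50 to 0.05, edgeR adjusted p = 0.941). Psmd1 was named after its values were seen. Psmd3 stood furthest up, with 98.6, 89.6 and 106 CPM in PS-MP and 104, 75.8 and 106 CPM in control, which overlapped (log2 fold change 0.04, SE 0.17).

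The assembly chaperones, which help build the particles and are not part of the finished enzyme, had log2 fold changes between -0.07 and 0.08 with a median of -0.02 and all 7 intervals inside 1.5-fold. Psmd9, a chaperone of the 19S base, had 50.2, 37.5 and 45.5 CPM in PS-MP and 45.7, 35.4 and 44.7 CPM in control. Psmg4, a chaperone of the core, had 5.11, 6.51 and 4.90 CPM in PS-MP and 5.07, 5.54 and 6.77 CPM in control. Neither gene differed beyond the spread within a diet.

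Of the activators, Psme1 and Psme2 encode the 11S cap that interferon induces together with the immunoproteasome. Psme1 had 106, 113 and 106 CPM in PS-MP and 130, 102 and 131 CPM in control, with control replicate 2 below each PS-MP library (log2 fold change -0.16, SE 0.14, interval -0.49 to 0.17). Psme2 had 58.6, 77.9 and 57.4 CPM in PS-MP and 68.3, 61.3 and 66.8 CPM in control (log2 fold change -0.02, SE 0.15). As with the immunoproteasome genes, Psme2 was highest in PS-MP replicate 2 and lowest in PS-MP replicate 3. The alternative activator genes Psme3 and Psme4 had log2 fold changes of -0.14 and -0.07, and Psmf1, which encodes the regulator PI31, had -0.16. Psme2b, a copy of Psme2, had 43, 131 and 51 counts in PS-MP and 73, 93 and 119 in control, and reads of near-identical copies may be assigned to either gene.

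The members of other tissues were at or near zero. Psma8, a subunit of the testis proteasome, had 44, 52 and 77 counts in PS-MP and 12, 39 and 77 counts in control, or 0.534, 0.589 and 0.899 CPM in PS-MP against 0.165, 0.641 and 0.728 CPM in control. Its range of 5.44-fold was the widest of the members tested (log2 fold change 0.39, SE 0.55). Psmb11, the catalytic subunit of thymus epithelium, was listed at 0 counts in every library, and a limit of 3 counts allows up to 0.0340 to 0.0364 CPM in PS-MP and 0.0284 to 0.0493 CPM in control, which covers counting error only. The 5 rows of proteasome pseudogenes outside the rule held few reads, with the most, 198 in all, for Psma5-ps.

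Divided by transcript length, Psmb5, Psmb6 and Psmb7 stood above the genes of their replacements in this liver. These are transcript levels, and the amount of each assembled form was not measured. The length was that of the longest principal transcript in an annotation of the earlier build, so values shift where the liver uses a shorter one. The mean over all 6 libraries ran from 59.7 CPM per kb for Psmb2 to 142 CPM per kb for Psmb6 among the beta subunits, and from 22.9 for Psma2 to 117 for Psma7 among the alpha subunits. It was 17.1 CPM per kb for Psmb8 and 19.6 for Psmb10, and Psmb9 was lowest of the 3, at 11.1 ± 5.93 in PS-MP and 10.9 ± 1.86 in control (SD, n = 3 each). Psmb5 had 90.1 ± 9.04 CPM per kb in PS-MP and 102 ± 21.2 in control, and Psmb8 had 17.3 ± 5.40 in PS-MP and 17.0 ± 1.37 in control (SD, n = 3 each).

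**Figure D3:**
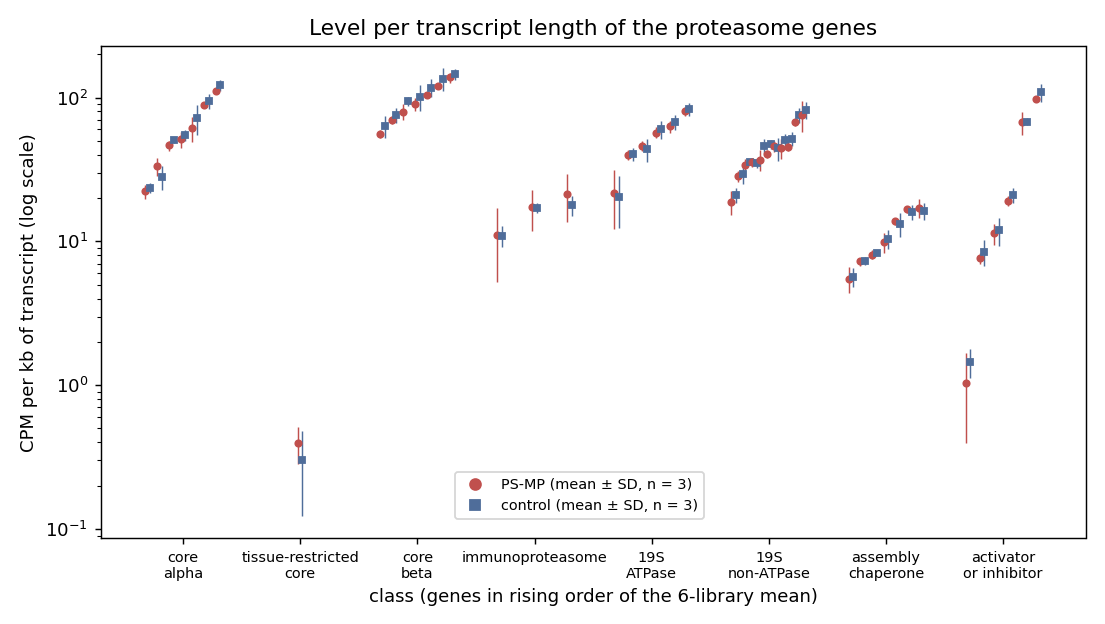
Level of each proteasome gene in CPM per kb of transcript, on a log scale, by class, as mean ± SD of 3 libraries (circles for PS-MP, squares for control). Genes are in rising order within a class. Psmb11, at 0 counts, is not drawn, and the immunoproteasome genes have mean levels of at most 21.4 CPM per kb in PS-MP and 17.8 in control, below each beta subunit of the common core.

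Single libraries stood apart for many members, and not in the same way for each. Control replicate 3 was the highest library for 26 of the 48 members tested, and control replicate 2 the lowest for 18. For 15 members, among them Psmb5, Psmc3, Psmd4 and Psmf1, the replicates numbered 2 of both diets were the 2 lowest libraries. For 4 members, Psmc6, Psmd10, Psme4 and Psme2b, the same libraries were the 2 highest. How often each library was highest or lowest was not counted over all genes. Whether the pattern is particular to the members is therefore not known. Psme4, which encodes the activator PA200, had 62.9, 87.0 and 71.1 CPM in PS-MP and 60.7, 95.4 and 76.0 CPM in control. Psmd4, an ubiquitin receptor, ran the other way, with 102, 76.5 and 126 CPM in PS-MP and 121, 92.1 and 113 CPM in control. Control replicate 2 had the largest share of 18S ribosomal RNA, 11.2%, but PS-MP replicate 2 had 0.599%, and the part of RNA quality in this pattern was not tested. The labels name no batch. The median ratio of the highest to the lowest library was 1.37 for the members and 1.92 for all genes tested.

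**Figure D4:**
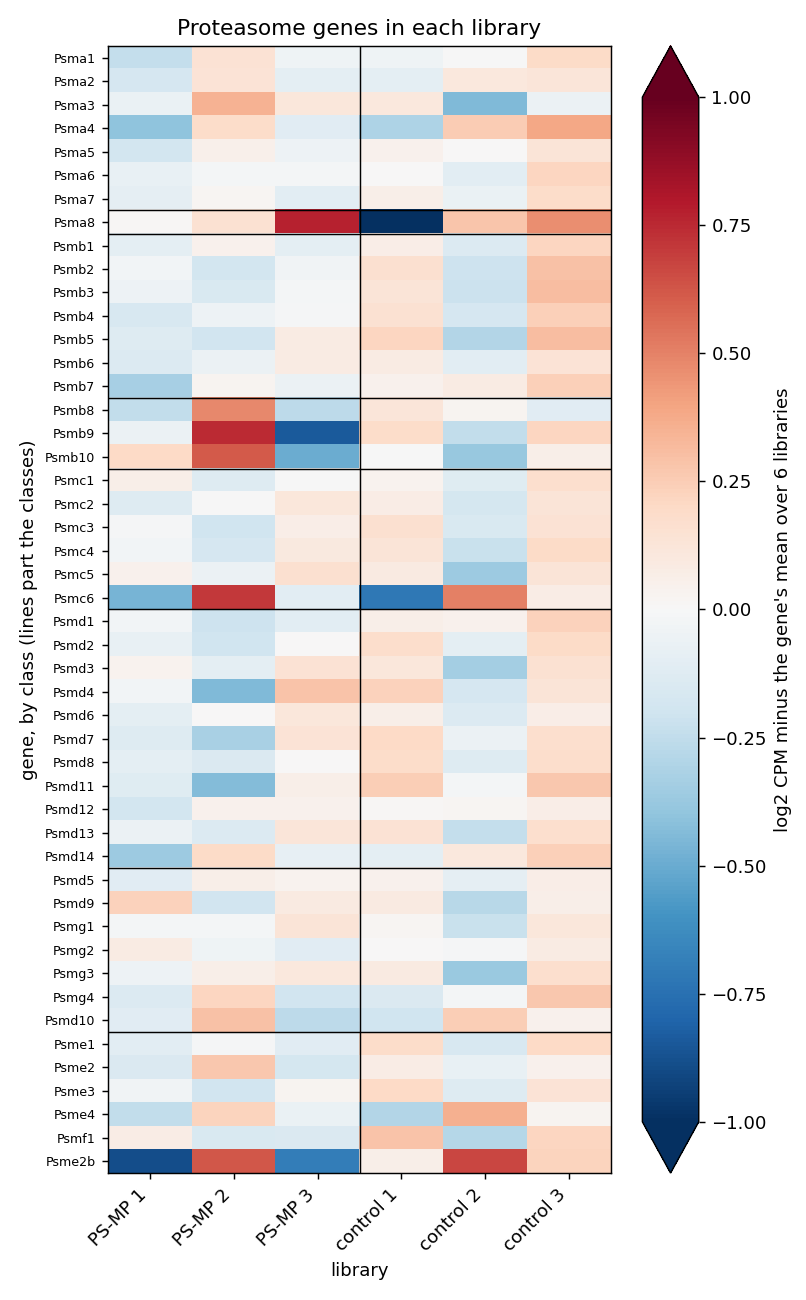
Log2 CPM of each proteasome gene minus its mean over the 6 libraries, with PS-MP libraries on the left, control libraries on the right and lines between classes. Red is above and blue below the gene's own mean; values beyond 1 take the end colour. Psmb8, Psmb9 and Psmb10 are red in PS-MP replicate 2 and blue in PS-MP replicate 3, and Psmc6 is red in both replicates numbered 2.

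The rest of the pathway was compared by 4 lists. Of all genes tested, 0.0113% passed and 47.2% were below 0, or 19.8% with library size alone, so counts below 0 depend on the scaling. Of 9 tested subunits and assembly factors with other names, 0 passed and 7 were below 0 (median -0.06). Adrm1, a ubiquitin receptor of the 19S particle, had 84.0, 73.2 and 97.2 CPM in PS-MP and 80.9, 62.0 and 96.0 CPM in control. Usp14, a deubiquitinase bound to the 19S particle, had a log2 fold change of -0.17. Of 10 tested shuttle and unfoldase genes, 0 passed and 9 were below 0 (median -0.14), with -0.15 for Rad23b, which carries ubiquitinated proteins to the proteasome, and 0.17 for Faf1.

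Of 10 genes that regulate proteasome transcription, 0 passed with edgeR. Nfe2l1 itself had 97.9, 96.2 and 139 CPM in PS-MP and 146, 136 and 123 CPM in control, which overlapped (log2 fold change -0.28, SE 0.18). Mafg, the gene of a small MAF partner of NFE2L1 and NFE2L2, had 20.3, 23.7 and 24.0 CPM in PS-MP and 13.7, 11.1 and 10.8 CPM in control. Each PS-MP library was above each control library (log2 fold change 0.94, SE 0.16, interval 0.56 to 1.31). The adjusted p was 0.767 with edgeR, so it was not called there, and 0.000739 with DESeq2, which called it. Its log2 fold change stayed between 0.88 and 1.15 over all alternatives, and DESeq2 was the only one of them to call it. The 5 members with the antioxidant response element core in their promoters, Psmb5, Psmb6, Psmc6, Psmd9 and Psmd12, had log2 fold changes of -0.17, -0.08, 0.09, 0.08 and -0.06.

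Of 7 genes of ubiquitin and its activating enzymes, 0 passed and 5 were below 0 (median -0.05). Ubb, a gene of ubiquitin chains, had 397, 290 and 405 CPM in PS-MP and 456, 413 and 390 CPM in control, which overlapped (log2 fold change -0.21, SE 0.17). Rps27a, which encodes ubiquitin fused to a ribosomal protein, had 149, 207 and 143 CPM in PS-MP and 120, 148 and 140 CPM in control, with control replicate 2 inside the PS-MP range (log2 fold change 0.29, SE 0.18).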

How the data were processed

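The deposited files hold whole-number read counts per gene symbol, not normalised by the authors, for 6 liver libraries. Per the labels, libraries were directional and made from poly(A) RNA, and the submitters' processing notes name bcl2fastq and GRCm39. Aligner, counter, annotation and strand setting were not given in the sources used here. Of the members, 13 overlap an exon of another gene on either strand in the GENCODE M21 annotation of GRCm38, and 9 do so on the opposite strand. Psmb7 shares up to 253 bases with Nek6 on the opposite strand, and Psmd1 up to 154 bases with Gm21972 on the same strand.

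Counts of repeated symbols were added. Genes were filtered with filterByExpr, scaled by TMM and compared by the quasi-likelihood F test of edgeR 4.0.16 (R 4.3.3), with diet as the one term and Benjamini-Hochberg adjustment over all 17662 genes; an adjusted p under 0.05 was called. A log2 fold change is PS-MP over control. Intervals use 6.63 moderated degrees of freedom. DESeq2 1.42.0, limma-voom 3.58.1, other scalings and filters, a replicate block and the omission of each library were alternatives. Named genes were the catalytic subunits, their replacements, Psme1 and Psme2, the smallest p per class and direction, any member past the threshold or with an over 4-fold range, and the smallest p per pathway list and direction. Members, lists and this rule were chosen with earlier results of these data known; other named genes were chosen after their values were seen. Some genes that the rule names are not reported here.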

Additional observations from a re-analysis of the deposited data

How the results depend on the processing

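The 17 alternatives called 0 members, DESeq2, limma-voom and the omission of each library included. The interval lay inside 2-fold for 43 to 46 members in the 15 that give one. Over all genes, 187 were called with DESeq2, 1 with limma-voom and 0 with a replicate block, against 2 with the design reported. Genes called numbered 0 (without control replicate 3) to 4 (without control replicate 2) when 1 library was left out. DESeq2 also called 3 genes of the pathway and marker lists, Mafg, Marco and S100a9. The deviations of same-numbered libraries of the diets correlated at 0.154, 0.181 and -0.144, and those of differently numbered libraries at -0.263 to 0.114. Whether replicate numbers pair the libraries was not tested. With library size alone, log2 fold changes turned positive for Psmb5 (0.031), Psmb6 (0.13), Psme1 (0.052), Psme2 (0.20), Psma7 (0.092), Psmc3 (0.11), Psmg4 (0.14), Usp14 (0.050) and Rad23b (0.064). This scaling moved all genes up by a median of 0.21. Psme2 was at 0.0020 with upper quartile scaling. Psmb8 and Psmb9 were at -0.023 and -0.11 with the replicate block, and at -0.017 and -0.11 with limma-voom. With 1 library left out, the log2 fold change ran from -0.27 to 0.14 for Psmb8, -0.46 to 0.32 for Psmb9, -0.013 to 0.50 for Psmb10, -0.17 to 0.048 for Psme2, -0.023 to 0.76 for Psma8, -0.064 to 0.17 for Psmc5, -0.10 to 0.13 for Psmd3, -0.028 to 0.19 for Psmd9, -0.21 to 0.058 for Psmg4 and -0.062 to 0.25 for Adrm1. The difference of log2 ratios ran from -0.17 to 0.34 for Psmb8 to Psmb5, -0.43 to 0.43 for Psmb9 to Psmb6 and 0.28 to 0.79 for Psmb10 to Psmb7. The cause of these changes was not tested. Depth limits Psma8, Psme2b and Psmb11, and with 3 libraries per diet the data do not exclude changes inside the printed intervals.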
